A study of Mus musculus with 13 samples.

Results

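Trps1, Zbtb20, Creb5 and Arid5b are 4 genes for transcription factors of the chondrocyte, the cell of cartilage, and the 5-hydroxymethylcytosine (5hmC) measured around them is described here region by region. They were chosen by the deposited lists themselves: every region whose nearest gene, as the authors named it, is 1 of the 4 was taken, which gave 135 of 181833 listed regions. Of these, 44 came from the 65969 listed for MUT DMM against WT DMM, 45 from the 43378 of WT DMM against WT sham and 46 from the 72486 of MUT DMM against WT sham. MUT DMM knees came from mice labelled TET-/- and were taken after surgery on the medial meniscus (DMM), which destabilises the joint and leads to osteoarthritis. WT DMM knees had the same operation in TET1+/+ mice, and WT sham knees of TET1+/+ mice were opened only. All were knee cartilage of male B6;129S4 mice, 6 weeks after surgery, aged 3 to 4 months by the series' design text and 4 to 6 months by the treatment protocol. The protocol describes DMM as removal of the medial meniscus and places each control on the opposite leg. The allele, and the tissue in which Tet1 is lost, are not given in the sources used here. Both the MUT sham knees and the control without glucosyltransferase were not used here, so the difference between genotypes without DMM was not tested.

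TET enzymes oxidise 5-methylcytosine to 5hmC, a mark that is found over the bodies and enhancers of active genes. Trps1 encodes an atypical GATA-type zinc finger protein that represses transcription and takes part in chondrocyte proliferation and maturation in the growth plate. Zbtb20 encodes a BTB zinc finger repressor needed in mice for the terminal differentiation of hypertrophic chondrocytes. Creb5 encodes a bZIP factor that, in bovine articular chondrocytes, is needed for expression of the lubricin gene Prg4. Arid5b encodes an ARID-domain DNA-binding protein that works in mouse chondrocytes with SOX9, the master factor of cartilage, and with the histone demethylase PHF2.

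The assay, reduced representation hydroxymethylation profiling, reads 5hmC at the motif CCGG alone, where the enzyme MspI cuts unless the cytosine carries glucose that was added to 5hmC. Promoters are shown for the 2 genes with a listed region next to a RefSeq promoter, to let the cut sites be seen. The sequences are the first 250 bases of each RefSeq promoter entry, 5′ to 3′ (GRCm38.p6, the same coordinates as mm10), with CCGG in capitals. By the RefSeq gene bounds used below, the Arid5b bases lie inside the gene, which ends at 68279355. The Creb5 bases run across the low-coordinate end of the gene, 53287226. The Arid5b promoter is chr10:68278727-68278976 on the minus strand and the outer Creb5 promoter is chr6:53287053-53287302 on the plus strand.
Arid5b: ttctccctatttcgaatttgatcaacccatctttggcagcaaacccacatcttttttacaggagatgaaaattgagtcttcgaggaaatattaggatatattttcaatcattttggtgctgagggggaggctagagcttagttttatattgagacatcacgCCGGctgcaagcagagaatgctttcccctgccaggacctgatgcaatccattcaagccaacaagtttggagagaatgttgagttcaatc
Creb5: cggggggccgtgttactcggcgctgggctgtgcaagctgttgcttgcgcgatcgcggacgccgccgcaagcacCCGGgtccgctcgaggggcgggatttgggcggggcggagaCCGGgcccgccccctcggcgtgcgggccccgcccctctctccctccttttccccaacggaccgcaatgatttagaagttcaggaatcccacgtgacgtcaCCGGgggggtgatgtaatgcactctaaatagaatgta
The Arid5b promoter holds 1 CCGG and the Creb5 promoter 3, with 66.4% G and C and 28 CG dinucleotides. Of 32851 mouse promoters, 47.1% hold at least 1 CCGG in the same bases (the motif reads the same on both strands). A region that was lower in MUT DMM than in WT sham, at 68279181 to 68279460, lies 205 bases from the Arid5b promoter entry. It spans the high-coordinate end of the gene at 68279355, which is the 5′ end on the minus strand. Another region, higher in MUT DMM than in WT sham, lies 729 bases from the Creb5 entry, at 53288081 to 53288280, but the authors named it for Gm25818. The inner Creb5 promoter has no CCGG in these bases, the Zbtb20 promoter has 1 and lies 7654 bases from the nearest listed region, and Trps1 was not matched.

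Levels are the authors' normalized read counts and can be compared within a comparison only. The values were whole multiples of a step per library, which was read as 1 sequenced read, and reads are given beside levels where they are few. A library is called by its position in the joined deposited cells, since they carry no replicate number. A pair of MUT DMM entries held the same values throughout and counts once, which leaves a deeper and a shallower MUT DMM library, given in that order. At the regions listed for MUT DMM against WT DMM these held 5889464 and 407929 reads, and the WT DMM libraries 52972, 1961515 and 2899132. In WT DMM against WT sham the WT DMM libraries held 4726, 436852 and 925241 reads, and the WT sham libraries 1400953, 563233 and 2187392. Thus the WT DMM library listed first was nearly empty, and a read of it stood for 9.56 normalized counts beside MUT DMM and for 15.7 beside WT sham. A count of 0 there allows a level of up to 28.7 and 47.0. In the shallower MUT DMM library 1 read was worth 3.55 normalized counts beside WT DMM and 9.45 beside WT sham, and 0 reads allow up to 10.7 and 28.3. These limits take 3 reads as what a count of 0 allows and cover counting error only.

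At the 4 genes together, 36 of 44 regions were lower in MUT DMM than in WT DMM and 8 were higher. Of all regions listed in that comparison, 64.7% were called lower and 34.2% higher at the authors' adjusted p under 0.05 (98.9% in either direction). After DMM in wild-type mice, 44 of 45 regions were higher than in WT sham and 1 was lower, where 93.2% of all listed regions were called higher and 6.53% lower (99.7% in either). MUT DMM against WT sham was divided, with 25 of 46 regions higher and 21 lower, beside 43.2% and 56.1% of all listed regions (99.3% in either). These directions are the values by which the regions came to be listed, so they are a description with no test. All 135 regions had an adjusted p under 0.05 in the authors' deposited tables, the largest being 0.0141, and regions with a window p above 0.0001 are not listed. The member nearest to that limit, at Arid5b 68346341, had a window p of 9.84e-05 in the authors' deposited table. The authors' group means matched the means of all joined values to within 0.00667 normalized counts, so they include the repeated MUT DMM entry. The authors' p-values in the comparisons with MUT DMM may thus count that entry as a separate replicate. How these p-values would change without it was not tested, and they are given as deposited.

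**Figure D1:**
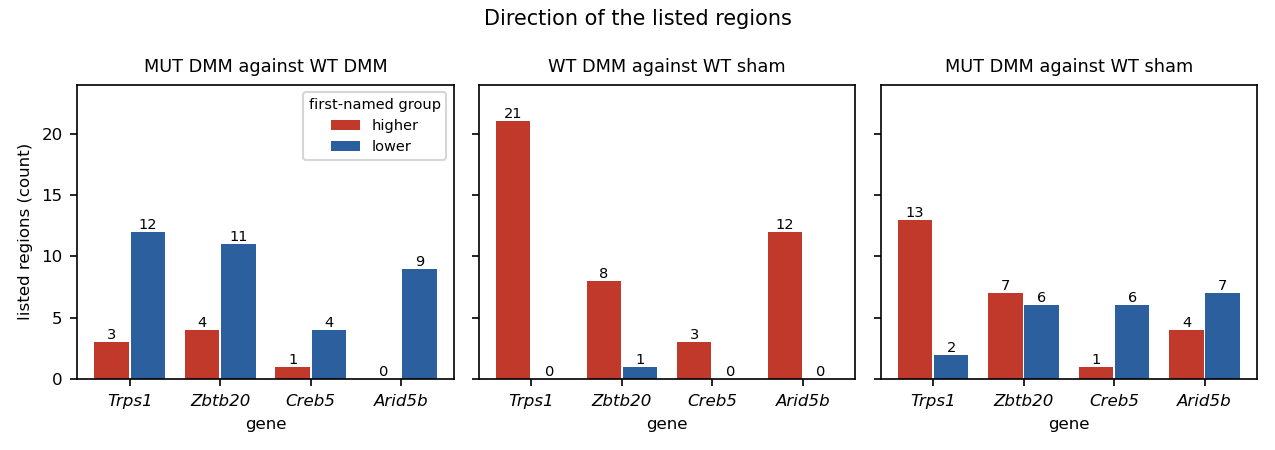
Number of listed regions (vertical axis, count) of Trps1, Zbtb20, Creb5 and Arid5b that were higher (red) or lower (blue) in the first-named group of each comparison. Lower bars are the taller ones in MUT DMM against WT DMM for every gene, higher bars in WT DMM against WT sham, and in MUT DMM against WT sham Trps1 had 13 higher and 2 lower while Creb5 had 1 and 6.

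The median log2 difference of the members was -0.72 in MUT DMM against WT DMM, 1.15 in WT DMM against WT sham and 0.38 in MUT DMM against WT sham, with 1 normalized count added to each group mean. Over all listed regions it was -0.63, 1.13 and -0.96. The medians of the members thus lay near those of all regions in the comparisons that include WT DMM, and on the other side of 0 in MUT DMM against WT sham. By gene, the median in MUT DMM against WT sham was 0.96 at Trps1, 0.34 at Zbtb20, -2.61 at Creb5 and -0.93 at Arid5b. The groups did not overlap in 19 regions of MUT DMM against WT DMM, 8 higher and 11 lower, beside 41.4% of all listed regions (22.9% higher and 18.5% lower). Leaving out the near-empty library (0 reads in 28 of the 44) gave 35 regions, 8 higher and 27 lower, beside 77.0% of all (24.1% and 52.9%). In WT DMM against WT sham that library was at 0 in 43 of 45 regions, and 1 region, higher, kept the groups apart, beside 2.70% of all (0.994% higher and 1.71% lower). Without it 39 did, all higher, beside 81.5% of all (79.5% higher and 2.02% lower). In MUT DMM against WT sham 38 regions did not overlap, 20 higher and 18 lower, beside 81.6% of all (32.5% and 49.1%).

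The third-listed WT DMM library had the highest level of its group in 33 of 44 regions beside MUT DMM and in 36 of 45 beside WT sham. Without it, 21 regions were higher and 23 lower in MUT DMM than in WT DMM, and 28 higher and 17 lower in WT DMM than in WT sham. Over all listed regions 54.0% and 64.6% were then higher. The WT DMM means then rest on the near-empty and the second-listed library.

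**Figure D2:**
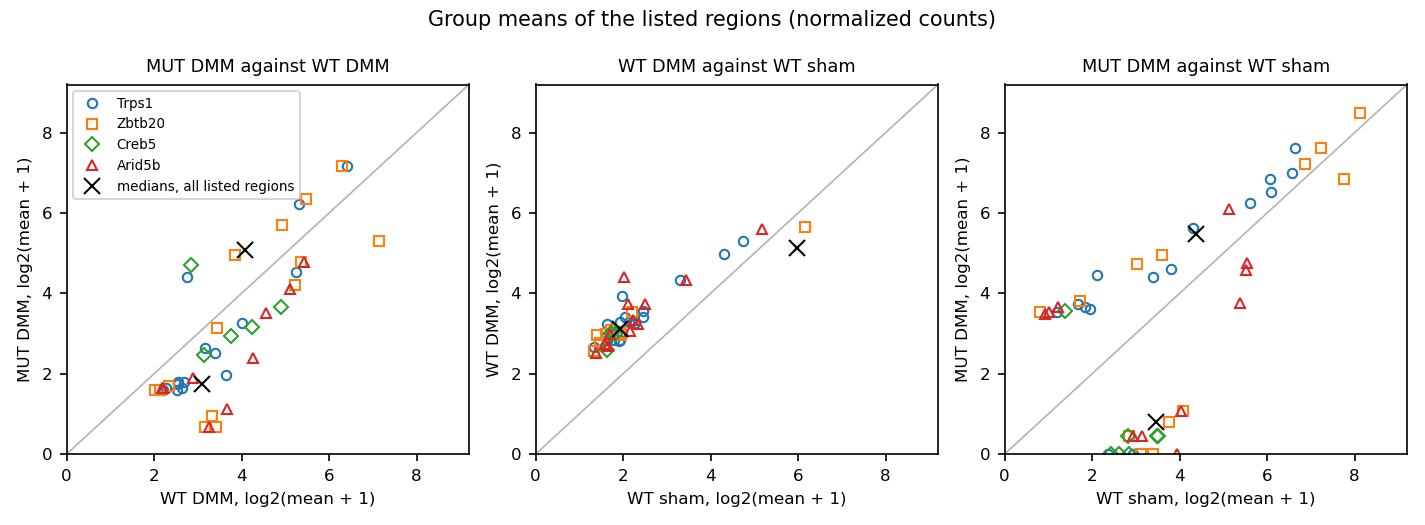
Group means of each listed region as log2(mean normalized count + 1), with the first-named group on the vertical and the second-named on the horizontal axis, 1 symbol per region and crosses for the medians of all listed higher and lower regions. Points below the diagonal are lower in the first-named group, and in MUT DMM against WT sham 17 of the 21 lower points lie along the bottom, where the deeper MUT DMM library had 0 to 3 reads.

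Trps1 lies on chromosome 15 from 50654757 to 50890631 (236 kb) and was named for 51 listed regions, 12 of them inside these bounds. All 7 regions inside the gene in MUT DMM against WT DMM were lower in MUT DMM, and all 5 inside it in WT DMM against WT sham were higher in WT DMM. No region inside the gene was listed in MUT DMM against WT sham, where 13 of 15 regions, on both sides of the gene and up to 396 kb away, were higher in MUT DMM. Whether a region outside the bounds acts on Trps1 is not known from these data.

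The 12 lower Trps1 regions in MUT DMM had a median of 2.47 normalized counts, against 5.32 in WT DMM. At 50682621 to 50683000, inside the gene, MUT DMM stood at 2.34 and 7.11 normalized counts (10 and 2 reads), against 0, 11.3 and 17.1 in WT DMM (0, 15 and 28 reads). The means were 4.72 ± 3.37 (SD, n = 2) and 9.44 ± 8.67 (SD, n = 3), a 2-fold lower level in MUT DMM that was within the spread of WT DMM. The log2 difference of -0.87 was -0.21 without the third-listed WT DMM library and -1.64 without the shallower MUT DMM library. Both MUT DMM libraries lay below the second- and third-listed WT DMM libraries and above the near-empty one. This region had the smallest adjusted p of the lower Trps1 regions, 1.43e-05 in the authors' deposited table. Its neighbour at 50683081 to 50683360 stood at 6.55 and 10.7 normalized counts in MUT DMM, against 0, 16.6 and 28.6 in WT DMM. At 50690041 the MUT DMM libraries had 99 and 6 reads and the WT DMM libraries 0, 70 and 95, the most reads of the 7 regions inside the gene. Of those 7, 6 had both MUT DMM libraries below the deeper WT DMM pair, and the exception started at 50821261, with 6 and 1 reads in MUT DMM against 0, 4 and 19 in WT DMM. The regions at 50748141, 50841841 and 50846701 had 2 to 6 reads in the deeper MUT DMM library, 1 in the shallower and 6 to 16 in the deeper WT DMM pair. Outside the gene the lower regions began at 50273921, 50526981, 50614321, 50906221 and 51109781, with 2 to 14 reads in the deeper MUT DMM library and 1 or 2 in the shallower. Leaving out the third-listed WT DMM library gave 8 higher and 7 lower Trps1 regions.

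The 3 Trps1 regions that were higher in MUT DMM than in WT DMM lay outside the gene, and in each both MUT DMM libraries exceeded every WT DMM library. At 50482941 to 50483360, MUT DMM stood at 80.2 and 67.5 normalized counts, against 0, 57.2 and 59.0 in WT DMM. The means were 73.9 ± 8.99 (SD, n = 2) and 38.7 ± 33.6 (SD, n = 3), and the log2 difference of 0.91 was 0.34 without the near-empty library. At 51037081 the levels were 153 and 135 in MUT DMM, against 19.1, 128 and 103 in WT DMM. At both places the lowest MUT DMM value stood close above the highest WT DMM value. At 51122741 to 51123000 MUT DMM stood at 18.9 and 21.3 normalized counts (81 and 6 reads), against 0, 0.75 and 16.4 in WT DMM (0, 1 and 27 reads), a 3.51-fold higher mean. The log2 difference there was 1.65, and 1.14, 1.20 and 3.94 with the first-, second- and third-listed WT DMM library left out.

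After DMM in wild-type mice all 21 Trps1 regions were higher than in WT sham, 5 inside the gene, 11 on its low-coordinate side up to 433 kb away and 5 on its high-coordinate side up to 357 kb away. Their medians were 8.47 normalized counts in WT DMM and 2.82 in WT sham. The near-empty WT DMM library was at 0 in all 21, and in 17 both other WT DMM libraries exceeded all 3 WT sham libraries. The 4 exceptions began at 50559621, 50625301, 50647141 and 50667701, where the second-listed WT DMM library had 1 to 3 reads. At 51031601 to 51031980 WT DMM stood at 0, 16.0 and 41.6 normalized counts, against 6.41, 10.7 and 9.57 in WT sham. Its means were 19.2 ± 21.0 and 8.90 ± 2.24 (SD, n = 3 each), a difference within the spread of WT DMM. At 50683181 to 50683460, inside the gene, WT DMM stood at 0, 48.0 and 66.6 normalized counts and WT sham at 27.9, 25 and 23.9. Next to it, at 50683481, the levels were 0, 32.0 and 59.4 in WT DMM and 22.7, 17.2 and 16.1 in WT sham. These are the Trps1 regions with the most reads in this comparison, with 24 to 64 in the deeper WT DMM pair. At 50438221 the levels were 0, 14.7 and 28.1 in WT DMM, against 1.28, 5.72 and 1.88 in WT sham, the highest fold of the 21 at 4.82. The other 17 had 1 to 13 reads in the second-listed and 4 to 24 in the third-listed WT DMM library. Leaving out the third-listed library gave 9 higher and 12 lower regions at Trps1, with log2 differences of -0.14 at 51031601 and -0.09 at 50683181, against 1.03 and 0.56 with it.

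Against WT sham, 13 Trps1 regions were higher in MUT DMM, and in 10 of them both MUT DMM libraries exceeded all WT sham libraries. At 50492081 to 50492320 MUT DMM stood at 138 and 113 normalized counts (188 and 12 reads), against 102, 94.9 and 84.9 in WT sham (193, 82 and 306 reads). Its means were 126 ± 17.7 (SD, n = 2) and 94.0 ± 8.76 (SD, n = 3), a 1.34-fold higher level in MUT DMM. Its adjusted p, 1.06e-05 in the authors' deposited table, was the smallest of all 46 member regions of that comparison. Regions at 50483541, 50627401 and 50637921 likewise kept the groups apart, with 101 to 205 reads in the deeper MUT DMM library and 8 to 25 in the shallower. At 50483541 MUT DMM stood at 74.4 and 75.6 normalized counts, against 43.5 to 52.1 in WT sham. At 50627401 the shallower MUT DMM library stood at 75.6 (8 reads) and the highest WT sham library at 71.6, a gap of less than the 9.45 of 1 read. At 50637921 MUT DMM stood at 151 and 236 normalized counts and WT sham at 114, 83.4 and 99.0. The deeper MUT DMM library did not exceed every WT sham library at 50555041 (68.5 against 60.5, 70.6 and 68.0), 50997721 (4.42 against 3.18, 4.63 and 2.22) or 51071721 (20.6 against 24.4, 17.4 and 15.0). In the 6 regions at 50258041, 50328081, 50907661, 51054621, 51111321 and 51117301 the shallower library had 1 or 2 reads, which give a level of 9.45 or 18.9. In the deeper library these 6 held 3 to 38 reads. The 2 lower regions, at 50381801 and 51017501, had 0 reads in both MUT DMM libraries, against 15, 8 and 10 reads and 6, 4 and 17 reads in WT sham. At 51017501 WT sham stood at 3.18, 4.63 and 4.72 normalized counts, above the 2.21 that 0 reads allow in the deeper MUT DMM library and below the 28.3 that they allow in the shallower.

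Zbtb20 lies on chromosome 16 from 42875689 to 43634392 (759 kb). Of its 37 listed regions 36 lay inside these bounds and 1 lay 0.529 kb outside. MUT DMM was lower than WT DMM in 11 of 15 regions, WT DMM was higher than WT sham in 8 of 9, and MUT DMM was higher than WT sham in 7 of 13.

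The 4 Zbtb20 regions that were higher in MUT DMM than in WT DMM had levels well above most lower ones, with a median of 65.6 normalized counts in MUT DMM, against 36.2 in WT DMM. In all 4 both MUT DMM libraries exceeded every WT DMM library. At 43557941 to 43558480 MUT DMM stood at 79.1 and 81.8 normalized counts, against 0, 67.7 and 61.5 in WT DMM. The log2 difference of 0.89 was 0.31 without the near-empty library. At 43142861 to 43143240 MUT DMM stood at 139 and 149, against 57.4, 100 and 75.5, with 593 and 42 reads in MUT DMM and 6, 133 and 124 in WT DMM. The means there were 144 ± 7.45 (SD, n = 2) and 77.6 ± 21.4 (SD, n = 3), 1.86-fold higher in MUT DMM. At 42875861, by the low-coordinate end of the gene, the levels were 31.1 and 28.4 in MUT DMM and 0, 25.6 and 14.6 in WT DMM.

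Of the 11 lower regions, 3 kept all libraries of the groups apart, and in these the near-empty WT DMM library had 1 or 2 reads while the shallower MUT DMM library had 0. The region with the smallest adjusted p of the lower Zbtb20 regions, at 42904181 to 42904560, stood at 1.87 and 0 normalized counts in MUT DMM (8 and 0 reads), against 9.56, 4.51 and 12.8 in WT DMM (1, 6 and 21 reads). The log2 difference of -2.36 was -3.31 without the deeper MUT DMM library, -1.79 without the shallower and -2.05 without the third-listed WT DMM library. Its neighbour at 42904621 had 5 and 0 reads in MUT DMM and 1, 7 and 15 in WT DMM. The other such region, at 43443641, had 5 and 0 reads in MUT DMM and 2, 4 and 11 in WT DMM. In the deepest libraries alone the lower level in MUT DMM at these 3 places rests on 5 to 8 reads, against 11 to 21 in the third-listed WT DMM library. Better read were those at 43513361 and 43537881, with 58 and 6 reads in MUT DMM against 2, 36 and 103 in WT DMM at 43513361, and 106 and 8 against 0, 63 and 120 at 43537881. At 42949361 the levels overlapped, with 4.91 and 10.7 normalized counts in MUT DMM, against 0, 8.27 and 21.3 in WT DMM. The 4 regions at 43205581, 43209541, 43266161 and 43499481 had 2 to 4 reads in the deeper MUT DMM library, 1 in the shallower and 3 to 14 in the deeper WT DMM pair. The listed reads at 43205581 and 43499481 were the same in every library (4 and 1 in MUT DMM, 0, 5 and 14 in WT DMM), though the regions lie far apart, and whether they hold a repeated sequence was not tested. Without the third-listed WT DMM library 10 Zbtb20 regions were higher in MUT DMM and 5 lower.

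In WT DMM against WT sham the 8 higher Zbtb20 regions had low levels, with medians of 6.83 normalized counts in WT DMM and 2.18 in WT sham. At 43308061 to 43308280 WT DMM stood at 0, 6.67 and 13.5 normalized counts (0, 5 and 13 reads), against 1.60, 2.15 and 1.20 in WT sham (5, 3 and 7 reads). The log2 difference was 1.55, and 0.71 with the third-listed WT DMM library left out. In 7 of the 8 both deeper WT DMM libraries exceeded all WT sham libraries. The exception, at 43282261, had 1 and 19 reads in these WT DMM libraries, against 9, 6 and 7 in WT sham. The other 6, at 42899701, 43121521, 43229741, 43239101, 43515501 and 43591241, had 3 to 9 reads in the second-listed and 9 to 24 in the third-listed WT DMM library, and 3 to 15 in the WT sham libraries.

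Against WT sham the 7 higher and 6 lower Zbtb20 regions differed in how well they were read. At 42984561 to 42985000 MUT DMM stood at 214 and 180 normalized counts (290 and 19 reads), against 136, 166 and 145 in WT sham (257, 143 and 523 reads). Its means were 197 ± 24.1 (SD, n = 2) and 149 ± 15.0 (SD, n = 3), 1.32-fold higher in MUT DMM, with no overlap on the authors' scale. The log2 difference of 0.40 was 0.23 with reads scaled to each library's listed total. Higher levels also stood at 43142561 (13.2 and 37.8 in MUT DMM, against 8.48, 5.79 and 7.21 in WT sham) and at 42874901, where the groups overlapped (12.5 and 47.2 against 9.54, 13.9 and 9.99). At 43105821 and 43505381 the shallower MUT DMM library had 2 reads, and the deeper one had 10 and 3. Of the 6 lower regions, 5 had 0 reads in the shallower MUT DMM library and 0 to 3 in the deeper one. The region at 43094661 to 43095040, the lower Zbtb20 region of smallest adjusted p, had 0 and 0 reads in MUT DMM, against 17, 6 and 25 reads in WT sham, which stand at 9.01, 6.95 and 6.93 normalized counts. At 43288461 the reads were again 0 and 0 in MUT DMM, against 16, 12 and 22 in WT sham. At 43469501 the first-listed WT sham library carried 76 reads and the others 3 and 13, against 3 and 0 in MUT DMM, so the WT sham mean there came mostly from 1 library. The other 2 had 1 and 0 reads in MUT DMM against 13, 4 and 25 in WT sham (43397061), and 2 and 0 against 9, 14 and 60 (43609521).

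Creb5 lies on chromosome 6 from 53287226 to 53700364 (413 kb), and 15 listed regions were named for it, all in the high-coordinate part of the gene or beyond its end. Another 15 listed regions within these bounds, nearer its low-coordinate end, were named by the authors for Gm25818. Of those, 7 were lower in MUT DMM than in WT DMM, 4 were higher in WT DMM than in WT sham, and in MUT DMM against WT sham 2 were higher and 2 lower. MUT DMM was lower in 4 of the 5 Creb5 regions set against WT DMM and in 6 of the 7 set against WT sham, and WT DMM was higher than WT sham in all 3.

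The Creb5 region that was higher in MUT DMM, at 53530721 to 53530960, stood at 22.0 and 28.4 normalized counts in MUT DMM (94 and 8 reads), against 0, 7.52 and 11 in WT DMM (0, 10 and 18 reads). The means were 25.2 ± 4.55 (SD, n = 2) and 6.16 ± 5.61 (SD, n = 3), 4.09-fold higher in MUT DMM, with no overlap. The log2 difference was 1.87, 1.36 without the near-empty WT DMM library and 2.46 without the third-listed one. The adjusted p was 0.000339 in the authors' deposited table, the smallest of the 5 Creb5 regions of this comparison. Lower in MUT DMM were the regions at 53642961, 53667161, 53704121 and 53738721, and in each the shallower MUT DMM library had 2 reads. At 53642961 MUT DMM stood at 1.87 and 7.11 normalized counts, against 0, 13.5 and 9.74 in WT DMM. At 53704121, 3.76 kb beyond the gene, it stood at 16.4 and 7.11, against 19.1, 24.8 and 43.2. The groups overlapped at 53642961 alone, through the near-empty library. There the log2 difference of -0.67 was -1.61 without the shallower MUT DMM library, -0.11 without the deeper and -0.10 without the second-listed WT DMM library. At 53667161 and 53738721 the deeper MUT DMM library had 27 and 38 reads, and the third-listed WT DMM library 25 and 34. These counts read lower in MUT DMM after scaling, since 1 read was worth 0.234 normalized counts in that MUT DMM library and 0.609 in that WT DMM library. Leaving out the third-listed WT DMM library gave the same 1 higher and 4 lower at Creb5.

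The 3 Creb5 regions that were higher in WT DMM than in WT sham lay close together in the gene. At 53554101 to 53554380 WT DMM stood at 0, 9.34 and 11.4 normalized counts (0, 7 and 11 reads), against 1.92, 3.58 and 2.05 in WT sham (6, 5 and 12 reads). At 53565141 and 53567021 WT DMM had 0, 12 and 5 reads and 0, 5 and 8 reads, against 10, 3 and 9 and 6, 4 and 9 in WT sham. In all 3 the deeper WT DMM pair exceeded every WT sham library while the near-empty library was at 0, and all 3 were higher also without the third-listed library.

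The 6 Creb5 regions lower in MUT DMM than in WT sham had 0 or 1 read in the deeper MUT DMM library and 0 in the shallower. At 53551641 to 53552020 MUT DMM stood at 0.740 and 0 normalized counts (1 and 0 reads), against 10.6, 8.10 and 11.9 in WT sham (20, 7 and 43 reads). This region had the smallest adjusted p of the Creb5 regions in this comparison, 1.99e-05 in the authors' deposited table. WT sham held 10, 5 and 27 reads at 53544441, 10, 3 and 16 at 53582321 and 9, 5 and 17 at 53732421, where MUT DMM held none. It held 14, 4 and 22 at 53651141 and 13, 14 and 28 at 53684441, where MUT DMM held 1 and 0. In the deeper MUT DMM library 0 reads allow up to 2.21 normalized counts, which is below the 3.47 to 7.49 of the WT sham libraries at the 3 regions without reads. The shallower library, where 0 reads allow up to 28.3, cannot show a difference at these levels. The higher region, at 53595241, had 4 and 2 reads in MUT DMM, against 2, 2 and 5 in WT sham, and its MUT DMM mean of 10.9 ± 11.3 (SD, n = 2) came mostly from the 2 reads of the shallower library, without which the log2 difference was 0.61, against 2.2 with it.

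**Figure D3:**
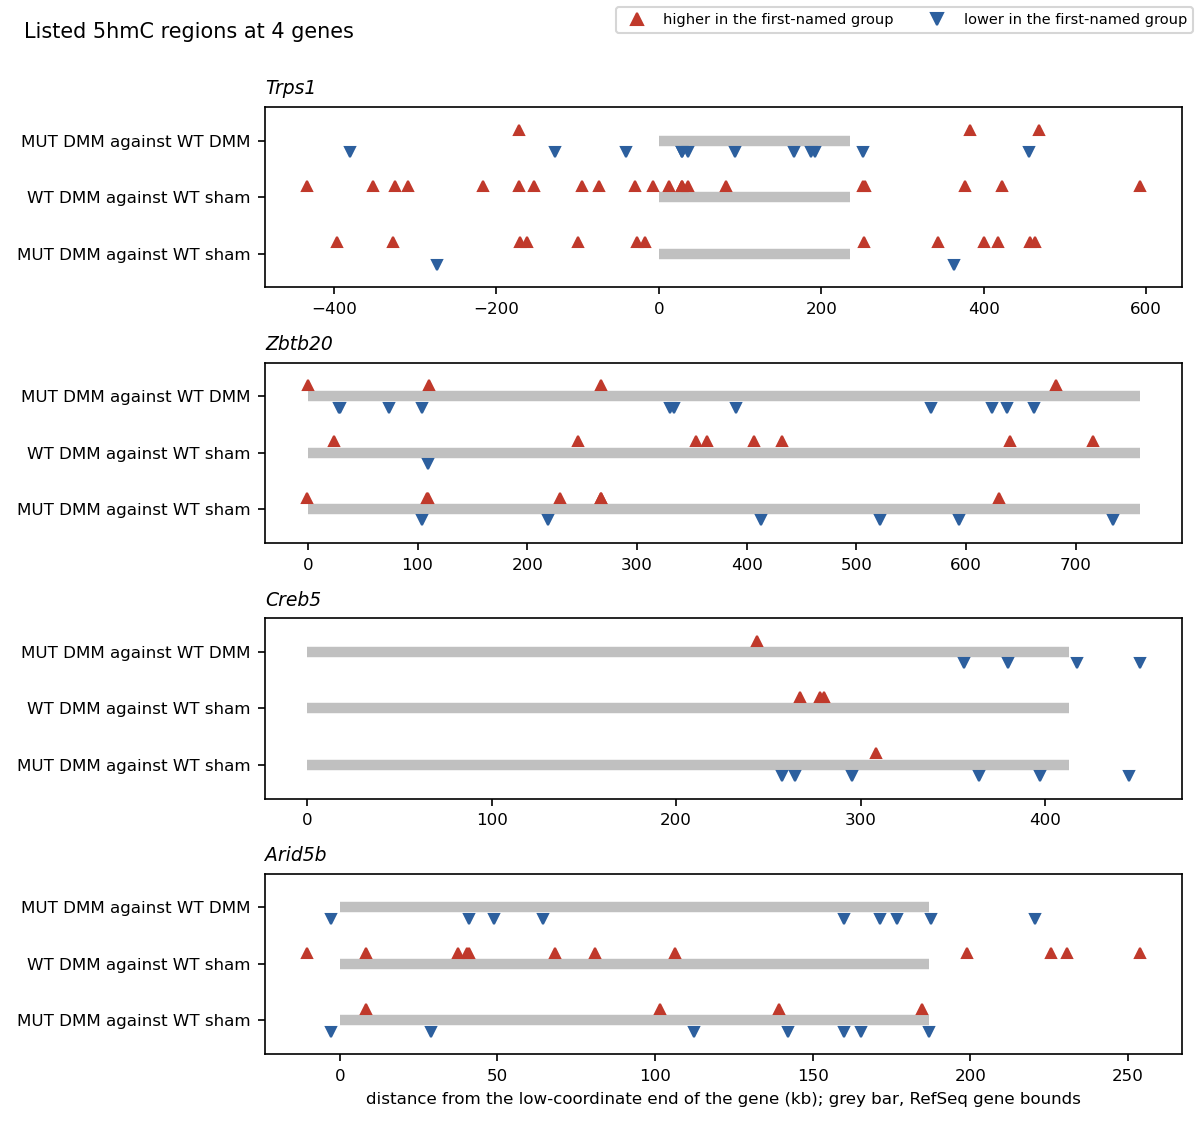
Position of each listed region, in kb from the low-coordinate end of its gene (horizontal axis), with the RefSeq gene bounds as grey bars, red triangles for regions higher in the first-named group of each comparison and blue ones for lower. The Trps1 bar has 7 lower marks in MUT DMM against WT DMM, 5 higher marks in WT DMM against WT sham and no mark in MUT DMM against WT sham.

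Arid5b lies on chromosome 10 from 68092523 to 68279355 (187 kb), and 23 of its 32 listed regions fell inside these bounds. All 9 of its regions in MUT DMM against WT DMM were lower in MUT DMM, all 12 in WT DMM against WT sham were higher in WT DMM, and in MUT DMM against WT sham 4 were higher and 7 lower. For its length it held more listed regions than most long genes: 3.21, 3.75 and 5.35 per 100 kb in these comparisons, where the medians of 2429 protein-coding genes of at least 100 kb were 2.09, 1.54 and 2.24. Trps1 held 2.97, 2.12 and 0 per 100 kb inside its bounds, Zbtb20 1.98, 1.19 and 1.58, and Creb5, with the regions named for Gm25818, 2.42, 1.69 and 2.42.

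The lower Arid5b regions had a median of 2.71 normalized counts in MUT DMM, against 11.8 in WT DMM. At 68133261 to 68133520 MUT DMM stood at 2.34 and 0 normalized counts (10 and 0 reads), against 9.56, 14.3 and 11.6 in WT DMM (1, 19 and 19 reads). The means were 1.17 ± 1.65 (SD, n = 2) and 11.8 ± 2.37 (SD, n = 3), with no overlap, and the shallower library's 0 allows up to 10.7. The log2 difference was -2.56, and -1.94 without the shallower or -3.68 without the deeper MUT DMM library. Its adjusted p of 2.31e-06 in the authors' deposited table was the smallest of all 44 member regions of that comparison. At 68089501 to 68089880, 2.64 kb outside the gene, MUT DMM stood at 4.91 and 3.55 normalized counts (21 and 1 reads), against 9.56, 15.0 and 29.8 in WT DMM (1, 20 and 49 reads), a 4.29-fold lower mean. The groups were also apart at 68280001 (10.1 and 10.7 against 38.2, 11.3 and 17.6) and at 68312781 (1.17 and 0 against 9.56, 5.27 and 11), where the near-empty library had 4 and 1 reads. The best-read Arid5b regions, at 68263681 and 68269241, had 78 and 4 and 105 and 8 reads in MUT DMM, against 1, 53 and 84 and 0, 71 and 118 in WT DMM. There both MUT DMM libraries lay below the deeper WT DMM pair and above the near-empty library. At 68141261 and 68156841 the groups overlapped also without that library, with 3 and 1 reads in MUT DMM at both places and 0, 3 and 14 and 0, 1 and 16 in WT DMM. Leaving out the third-listed WT DMM library gave 7 lower and 2 higher regions at Arid5b.

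In WT DMM against WT sham the higher Arid5b regions had medians of 8.76 normalized counts in WT DMM and 3.37 in WT sham, and in all 12 the deeper WT DMM pair exceeded every WT sham library. The region at 68133261 to 68133520 was the single member region in which all WT DMM libraries exceeded all WT sham libraries, with 15.7, 25.4 and 19.8 normalized counts (1, 19 and 19 reads), against 6.73, 0.720 and 1.71 (21, 1 and 10 reads). Its means were 20.3 ± 4.85 and 3.05 ± 3.22 (SD, n = 3 each), 6.64-fold higher in WT DMM. The log2 difference was 2.39, and leaving out each library in turn gave 2.03 to 3.26, the highest without the first-listed WT sham library. With reads scaled to each library's listed total it was 3.52, a scaling that gives most weight to a read of the near-empty library (4726 listed reads). The level of the near-empty library there is that of 1 read. At 68081961 to 68082340, outside the gene, WT DMM stood at 0, 12 and 25 normalized counts, against 4.48, 2.86 and 2.56 in WT sham, and its adjusted p of 0.000264 in the authors' deposited table equalled the smallest of the 45 member regions. The most reads were found at 68346341, 67.0 kb outside the gene, with 1, 51 and 57 in WT DMM and 123, 48 and 183 in WT sham. At 68132781, next to the region that kept the groups apart, the reads were 0, 19 and 31 in WT DMM and 34, 13 and 55 in WT sham. The other 7, at 68129881, 68160521, 68173241, 68198821, 68291261, 68317861 and 68322961, had 3 to 8 and 6 to 16 reads in the deeper WT DMM pair, and 3 to 16 in the WT sham libraries. Leaving out the third-listed WT DMM library gave 10 higher and 2 lower, and a log2 difference of 0.70 at 68081961, against 1.63 with it.

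Of the 7 Arid5b regions lower in MUT DMM than in WT sham, 5 kept the groups apart. At 68234501 to 68234880, the region with the smallest adjusted p of these, MUT DMM had 0 and 0 reads and WT sham 15, 16 and 59, which stand at 7.95, 18.5 and 16.4 normalized counts. At 68279181, by the printed promoter, MUT DMM had 1 and 0 reads and WT sham 15, 6 and 31. At 68121401 the reads were 1 and 0 against 11, 7 and 21. At 68257781 the first-listed WT sham library held 68 reads and the others 5 and 15, against 3 and 0 in MUT DMM, so that the WT sham mean there too came mostly from 1 library. At 68204621 MUT DMM stood at 17.7 and 28.3 normalized counts within the range of WT sham (16.4, 75.2 and 42.2). The 4 higher regions were at 68277161, where MUT DMM stood at 58.9 and 75.6 normalized counts (80 and 8 reads) against 31.3, 38.2 and 32.7 in WT sham (59, 33 and 118 reads), and at 68100761, 68193841 and 68231681. The means at 68277161 were 67.2 ± 11.8 (SD, n = 2) and 34.1 ± 3.65 (SD, n = 3), 1.97-fold higher in MUT DMM. In the other 3 the shallower library had 2 reads, the deeper one 2 to 6, and the WT sham libraries 0 to 7.

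Across the 4 genes, reads of the shallower MUT DMM library set many of the levels against WT sham. It had 0 reads in 17 of the 21 lower regions, beside 75.4% of all listed lower regions. It had 1 read in 1 and 2 reads in 11 of the 25 higher regions, and at most 2 reads in 36.4% of all listed higher regions. Against WT DMM it had 0 reads in 5, 1 in 16 and 2 in 6 of the 36 lower regions, and at most 1 read in 69.9% of all listed lower ones. Its part in these differences was not tested.

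Overlap by at least 1 base put 21 of the 135 regions into 10 places listed in more than 1 comparison, 3 at Trps1, 3 at Zbtb20, 4 at Arid5b and 0 at Creb5. Each pair of comparisons shares a group of libraries, so the values are given side by side and nothing is read from their number. Among the 44 in MUT DMM against WT DMM, 11.4% overlapped a member region of WT DMM against WT sham and 11.4% one of MUT DMM against WT sham, where the shares over all listed regions were 11.6% and 20%. Among the 45 in WT DMM against WT sham, 11.1% overlapped one of MUT DMM against WT DMM and 4.44% one of MUT DMM against WT sham, where all regions gave 17.6% and 8.51%. Among the 46 in MUT DMM against WT sham, 10.9% overlapped one of MUT DMM against WT DMM and 4.35% one of WT DMM against WT sham, where all regions gave 18.1% and 5.11%.

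At 3 places the level was lower in MUT DMM than in WT DMM and higher in WT DMM than in WT sham: Trps1 at 50683081 to 50683460 and at 50906221 to 50906500, and Arid5b at 68133261 to 68133520. At the Arid5b place the libraries of MUT DMM lay below all WT DMM libraries, and those of WT DMM above all WT sham libraries. At the first Trps1 place the near-empty WT DMM library, at 0, lay below both MUT DMM and WT sham. At 50906221 MUT DMM had 3 and 1 reads, against 0, 3 and 15 in WT DMM, and at the overlapping 50906281 WT DMM had 0, 3 and 15 reads, against 5, 3 and 14 in WT sham. The 15 reads of the third-listed library thus carried the WT DMM mean in both comparisons: without it the log2 difference was 0.55 in MUT DMM against WT DMM and -0.02 in WT DMM against WT sham, and with it -0.62 and 1.31. At the first Trps1 place it was 0.05 and -0.09 without that library, and -0.74 and 0.56 with it.

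At another 3 places MUT DMM was lower than both wild-type groups. The Zbtb20 place at 42979581 to 42980000 had the highest WT DMM mean of all 44 regions set against MUT DMM, with 42.1 and 35.5 normalized counts in MUT DMM (180 and 10 reads), against 28.7, 114 and 282 in WT DMM (3, 151 and 463 reads). The means were 38.8 ± 4.65 (SD, n = 2) and 141 ± 129 (SD, n = 3), a 3.64-fold lower level within the spread of WT DMM. The log2 difference of -1.84 was -0.86 with the third-listed WT DMM library left out. Against WT sham, at 42979601, MUT DMM stood at 133 and 94.5 normalized counts and WT sham at 242, 293 and 117, so the groups overlapped. At the Arid5b place at 68089501, MUT DMM against WT sham stood at 15.5 and 9.45 normalized counts, against 32.9, 53.2 and 36.3, with no overlap, as against WT DMM. At the Arid5b place from 68252321 the levels were 1.87 and 3.55 in MUT DMM against 0, 8.27 and 11 in WT DMM, and 14.0 and 37.8 in MUT DMM against 37.6, 63.7 and 35.2 in WT sham, with overlap in both. In the comparison with WT sham the log2 difference of -0.79 was -1.63 without the shallower MUT DMM library and -0.26 without the deeper.

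The place listed in all 3 comparisons was Zbtb20 at 42985541 to 42985880. MUT DMM stood at 48.2 and 53.3 normalized counts (206 and 15 reads), against 0, 41.4 and 46.9 in WT DMM (0, 55 and 77 reads). WT DMM stood at 0, 72.0 and 75.0 normalized counts (0, 54 and 72 reads), against 69.8, 68.7 and 74.2 in WT sham (218, 96 and 434 reads), the single member region lower in WT DMM. MUT DMM stood at 152 and 142, against 116, 111 and 120 in WT sham. The libraries of MUT DMM exceeded those of both wild-type groups. The 0 of the near-empty library lowered the WT DMM mean in both comparisons that include it. Without that library the log2 difference in MUT DMM against WT DMM was 0.20, against 0.77 with it. The lower mean of WT DMM against WT sham came from that 0: without the library the log2 difference was 0.05, against -0.52 with it.

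The remaining 3 places had other combinations. At Zbtb20 43142861 to 43143260 MUT DMM was higher than both wild-type groups, with 376 and 340 normalized counts (510 and 36 reads) against 325, 223 and 288 in WT sham (612, 193 and 1038 reads), and no overlap with either group. At Trps1 50482761 to 50483360 the regions share 40 bases: MUT DMM was higher than WT DMM, and WT DMM, with 0, 12 and 4.17 normalized counts, was higher than WT sham, with 1.28, 2.15 and 1.20, by a log2 difference of 1.33 that was 0.28 without the second-listed WT DMM library. At Arid5b 68100741 to 68101000 WT DMM stood at 0, 21.3 and 15.6 normalized counts, against 5.45, 5.72 and 2.91 in WT sham, a log2 difference of 1.23 that was 0.63 without the second-listed WT DMM library. There MUT DMM had 6 and 2 reads, against 7, 0 and 1 in WT sham, and stood at 4.42 and 18.9 normalized counts, against 3.71, 0 and 0.280. That log2 difference was 2.44, and 1.22 without the shallower MUT DMM or 3.47 without the first-listed WT sham library.

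**Figure D4:**
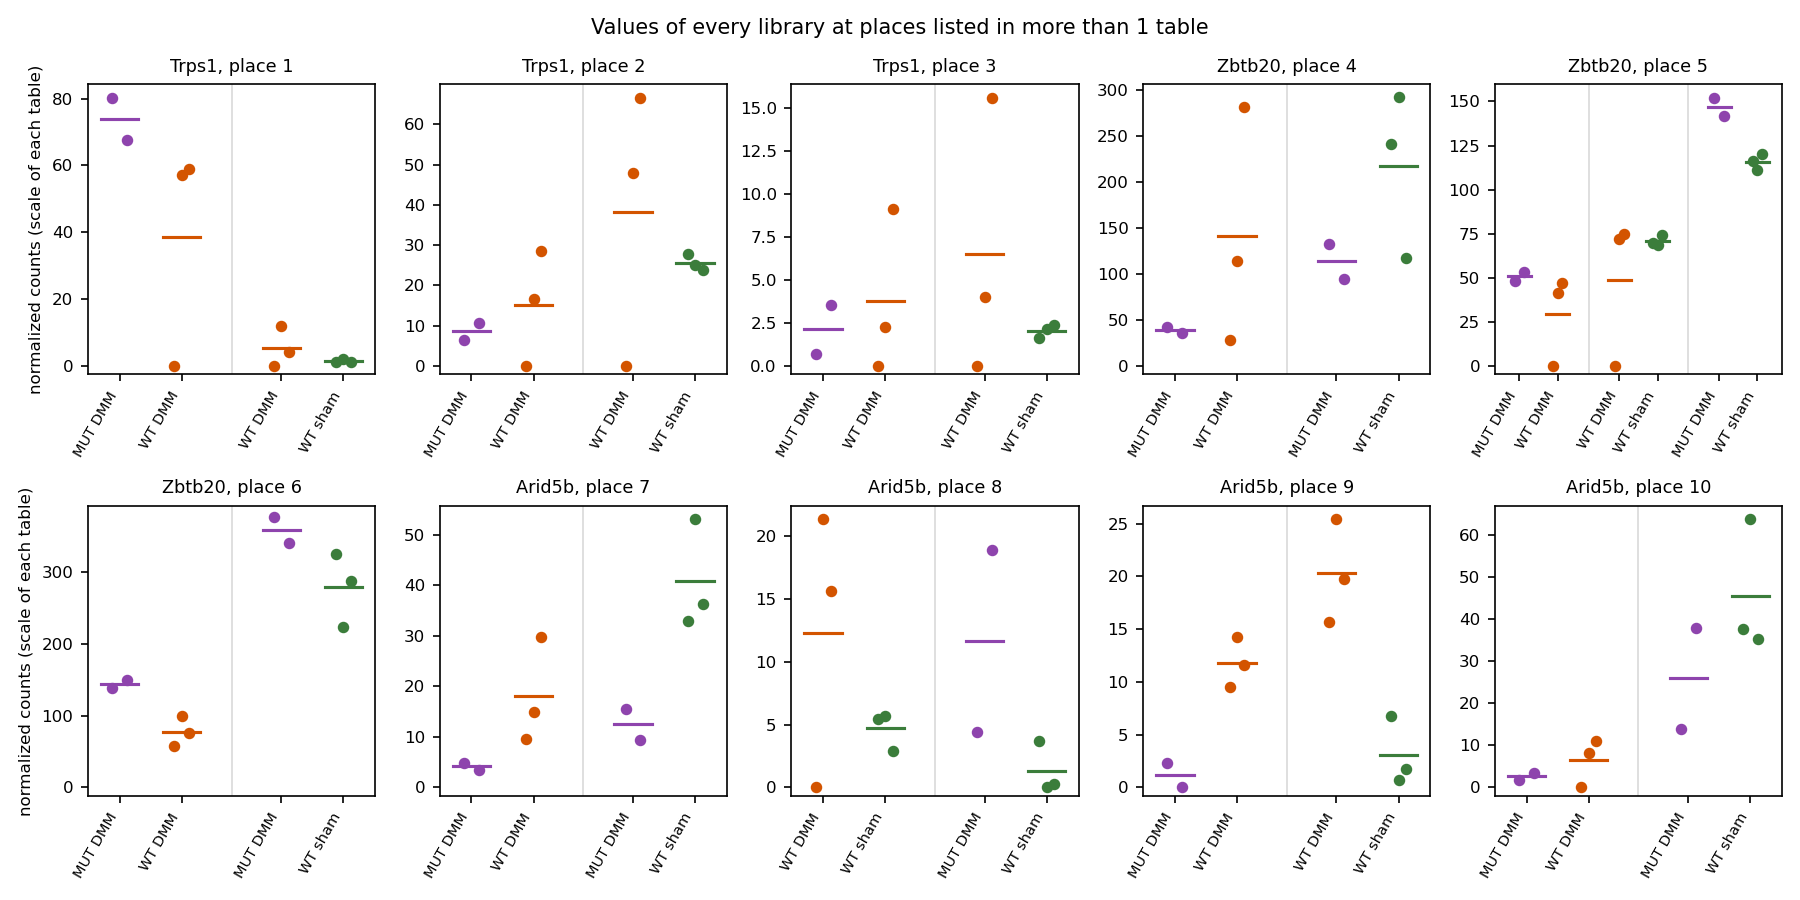
Normalized counts (vertical axis, on the scale of each comparison) of every distinct library at the 10 places listed in more than 1 comparison, with group means as bars and grey lines between comparisons, MUT DMM in purple, WT DMM in orange and WT sham in green. At Arid5b place 9 (68133261) the points of the groups do not overlap in either comparison, where the point of the near-empty WT DMM library is 1 read. At Trps1 places 2 and 3 a WT DMM point at 0 lies below those of the other group.

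Other transcription factors of the chondrocyte, with Hdac4, for a histone deacetylase, counted among them, had regions of both directions as well. Of 35 such genes, 28 held a region higher and 31 a region lower in MUT DMM than in WT DMM (64 and 164 regions, median log2 difference -0.66). In WT DMM against WT sham 23 held a higher and 9 a lower region (142 and 13 regions, median 1.12), and in MUT DMM against WT sham 24 and 27 did (89 and 201 regions, median -2.22). In that comparison 30.7% of the regions of the 35 genes were higher, beside 54.3% of those of the 4 genes and 43.7% of all listed regions. The 4 genes were not alike in this: 86.7% were higher at Trps1, 53.8% at Zbtb20, 14.3% at Creb5 and 36.4% at Arid5b. Sox9, for the master factor of cartilage, held 2 higher regions in MUT DMM against WT DMM, 2 higher in MUT DMM against WT sham and none in WT DMM against WT sham. Mef2c, for a factor of chondrocyte hypertrophy, held 2 higher and 14 lower regions in MUT DMM against WT DMM, 20 and 1 in WT DMM against WT sham, and 7 and 9 in MUT DMM against WT sham. Zfp521, for a zinc finger factor of growth plate chondrocytes, held 2 and 7, 16 and 0, and 7 and 10 in the same order. Mef2c and Zfp521 are examples with many regions, as is Sox5, with 4 and 19, 17 and 0, and 7 and 23. Other genes of the 35 differed. Runx3 held 2 and 6, 0 and 2, and 0 and 6, and Nfix 4 and 3, 0 and 1, and 6 and 12.

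Of 11 relatives of the 4 factors, 8 had a higher region and 9 a lower one in MUT DMM against WT DMM, 7 and 3 in WT DMM against WT sham, and 6 and 10 in MUT DMM against WT sham. Zbtb16, a BTB zinc finger gene like Zbtb20, held 17 lower regions and none higher in MUT DMM against WT sham. Gata6, of the GATA type, held 6 higher and 4 lower there, and Creb1, a bZIP relative of Creb5, 2 and 1. Arid5a, another ARID-domain gene, held 1 higher and 2 lower regions in MUT DMM against WT DMM, 1 higher in WT DMM against WT sham, and 1 of each in MUT DMM against WT sham. As 5hmC regions are listed only where they differ, they cannot check the tissue label: of 7 cartilage genes, 5 had a higher region and 4 a lower one in MUT DMM against WT DMM, 2 and 1 in WT DMM against WT sham and 6 and 2 in MUT DMM against WT sham, and Comp held none. Sox9 is counted among these 7 and also among the 35 above. Of 5 genes of other tissues of the knee the counts were 1 and 3, 4 and 1, and 1 and 2.

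Among 26842 deposited gene names, those with counts of higher and lower regions most like each of the 4 were found by the distance between the square roots of the 6 counts. For Creb5, BC052040 had the same counts (distance 0), followed by Cep120 (0.213) and Stk24 (0.236). For Arid5b they were Gm26651 (0.437), Gm12895 (0.460) and Usp25 (0.663), and for Zbtb20 they were Gm17384 (0.435), Mgmt (0.618) and Thsd7a (0.623). For Trps1 they were A830018L16Rik (0.75), Gm23986 (0.790) and Gm6098 (0.883). A830018L16Rik held 4 higher and 14 lower regions in MUT DMM against WT DMM, 19 higher in WT DMM against WT sham, and 12 higher and 4 lower in MUT DMM against WT sham.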

How the data were processed

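RRHP libraries of 13 knee cartilage samples were labelled by the submitters, of which 8 distinct libraries (2 MUT DMM, 3 WT DMM, 3 WT sham) are in the files used here. The genome was mm10, and HISAT2 2.1.0, Trim Galore 0.5.0, bcl2fastq 2.20.0, bedtools and SAMtools are named in the submitters' processing notes. Region caller and scaling are not given in the sources used here. Deposited tables hold, per the file headers, joined normalized counts per library, the mean signal of each group, and p-values with adjusted p-values by the authors. They list regions that differ, so no test was run here. The members, gene lists and comparisons were chosen with earlier results of these data known. A replicate is as labelled, and its animal is not stated.

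Joined values were split, identical entries of a group were counted once, and reads were recovered as whole multiples of a step (100% of values, within 0.02 normalized counts). Group assignment follows the order of the names in each table's title. Recovered reads were equal in 100% of the 925, 248 and 1863 regions with the same bounds in a pair of comparisons. Log2 differences were recomputed with 1 normalized count added (Python 3.11.15, pandas 2.3.3, numpy 2.4.6), and the code was tested on simulated data. Regions named with all values were, per gene, comparison and direction, that of smallest adjusted p, and every place in more than 1 comparison; the rest follow by position. Gene bounds came from RefSeq GRCm38.p6. Alternatives were the adjusted p limit, RefSeq bounds, each library left out, the repeated library counted as listed, reads scaled to each library's listed total, a minimum of 10 reads and 0.1 added counts.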

Additional observations from a re-analysis of the deposited data

How the results depend on the processing

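The counts of higher and lower regions were the same, or within 1.5 times, under an adjusted p under 0.01, with the repeated MUT DMM library counted as often as listed, with a minimum of 10 reads and, an alternative chosen after seeing the data, without both thin libraries in MUT DMM against WT DMM. Taking regions by RefSeq bounds gave 5 higher regions in MUT DMM against WT DMM, 27 in WT DMM against WT sham and 13 in MUT DMM against WT sham. Reads scaled to each library's listed total gave 4 lower regions in WT DMM against WT sham. Leaving out each library in turn gave 8 to 21 higher and 23 to 36 lower in MUT DMM against WT DMM, 28 to 45 higher and 0 to 17 lower in WT DMM against WT sham, and 25 higher and 21 lower in MUT DMM against WT sham throughout. Places with identical start and end in more than 1 comparison numbered 2.

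Leaving out each library gave log2 differences of -1.3 to 0.05 at Trps1 50683081 and -1.5 to 0.55 at Trps1 50906221 in MUT DMM against WT DMM. In WT DMM against WT sham they were -0.09 to 1.13 at Trps1 50683181, -0.02 to 1.83 at Trps1 50906281, -0.14 to 1.59 at Trps1 51031601 and -0.96 to 0.05 at Zbtb20 42985541. Each negative Trps1 value in WT DMM against WT sham, and each positive one in MUT DMM against WT DMM, came without the third-listed WT DMM library. Reads scaled to the listed total gave -0.31 at Trps1 50683181, 0.08 at Trps1 51031601, 0.51 at Trps1 50906281, -1.37 at Zbtb20 42985541, 0.92 at Zbtb20 43308061, 0.51 at Creb5 53554101, 0.88 at Arid5b 68081961, 0.59 at Arid5b 68100741 and 3.52 at Arid5b 68133261 in WT DMM against WT sham. In MUT DMM against WT sham that scaling gave -1.47 at Trps1 51017501, -2.07 at Zbtb20 43094661, -2.22 at Creb5 53551641 and -2.82 at Arid5b 68234501, where 0.1 added counts gave -5.42, -6.27, -4.46 and -7.17 and 1 added count -2.37, -3.11, -3.03 and -3.93. At the higher Zbtb20 regions 42984561 and 42985541 it gave 0.23 and 0.17, against 0.40 and 0.34 on the authors' scale. In MUT DMM against WT DMM it gave 0.44 at Zbtb20 43142861, against 0.88. No paired analysis was possible because the joined values carry no replicate number and the results come from no test. Depth limits the near-empty WT DMM and the shallower MUT DMM library, whose single reads set many levels; the cause of the changes across settings was not tested.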
